A study of Mus musculus with 8 samples.

Results

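The transcripts described here are 5 translation elongation factors (Eef1a1, Eef1b2, Eef1d, Eef1g and Eef2) and 5 further messages known as terminal oligopyrimidine (TOP) transcripts (Tpt1, Fau, Btf3, Naca and Pabpc1). They were taken by gene symbol, 10 genes out of 55291 in the deposited table, under a rule that names gene classes and no threshold on values, and initiation factors and ribosomal proteins named Rpl or Rps were left out by the rule. All 10 were in the table and all 10 passed the filter on low counts. CD8+ T cells enriched by a magnetic kit from spleens of naïve mice were compared between 4 libraries titled ATF4 overexpression (genotype label ATF4 Tg/Tg) and 4 titled WT (genotype label WT). The labels give no age or treatment, and the design text names the mice as E8IcreATF4Tg/Tg and ATF4Tg/Tg. Under that text both groups carry the transgene and differ in a Cre driver named for E8I, an enhancer of the Cd8a locus. WT is used here as the sample labels use it. Whether each library came from its own mouse is not stated, so the p-values cover only the spread between these samples, which may be technical.

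During elongation, the GTPase eEF1A (encoded by Eef1a1) brings aminoacyl-tRNA to the ribosome, the eEF1B complex (Eef1b2, Eef1d and Eef1g) exchanges its spent GDP for GTP, and eEF2 moves the ribosome along the message. TOP messages begin with a C followed by a run of C and T letters at the very 5′ end, and encode ribosomal proteins, elongation factors and a few others. Their translation is switched by mTORC1, with the RNA-binding protein LARP1 among its effectors, so that resting lymphocytes can keep them in store. ATF4 is the transcription factor of the integrated stress response and acts on genes of amino acid supply.

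The defining feature of the class was looked for in the sequences, as a C followed by at least 4 letters that are C or T, with the first C at the first base. In GENCODE M21, 5 of the 10 genes (50.0%) had at least 1 transcript that starts so, against 44.2% of the 77 cytosolic ribosomal protein genes, 15.7% of 2223 matched genes of at least 100 CPM (counts per 1000000 counts of the library, with TMM scaling) and 4.55% of all 55341 genes in the annotation. The 5 genes were Eef1b2, Eef1d, Fau, Tpt1 and Pabpc1. The first 30 bases of 1 such transcript of Eef1d, Fau, Tpt1 and Pabpc1 are printed 5′ to 3′ on the transcribed strand of GRCm38, with the starting stretch in capitals, to show the feature that gives these messages their name.
Eef1d, chr15:75909277-75909306, minus strand: CTCTCCTTTgcagtcctgagctcgcagttc
Fau, chr19:6057951-6057980, plus strand: CTCTTTCTTgactccatcttcgcggtagca
Tpt1, chr14:75845331-75845360, plus strand: CTTTTCCgcccgctcccccctccccccgcg
Pabpc1, chr15:36608944-36608973, minus strand: CCCCTTCTCCCCggcggttagtgctgagag

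The Tpt1 transcript shown is annotated as a retained-intron transcript. Of all 78 annotated transcripts of the 10 genes, 7 (8.97%) start with such a stretch, against 2.02% of all transcripts. The RefSeq promoter table of GRCm38.p6 held 7 of the 10 genes, and in 1 of them (Fau) the annotated first base was a C followed by at least 4 C or T letters, inside a run that began 3 bases earlier. A stretch lay between 10 bases before and 20 bases from the start in 5 of 7, against 37 of 57 ribosomal protein genes (64.9%) and 39.6% of all 27025 genes in the table. On the opposite strand the share was also 5 of 7, against 44.5% of all genes, and overlapping stretches were counted once for a gene. The windows of Eef1a1 and Fau, which begin 10 bases before the annotated start, are printed on the transcribed strand to show where the longest stretch (capitals) lies around the annotated start.
Eef1a1, chr9:78481705-78481734, minus strand: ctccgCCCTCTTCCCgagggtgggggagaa
Fau, chr19:6057937-6057966, plus strand: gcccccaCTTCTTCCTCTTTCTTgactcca

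Library totals ran from 103741876 to 119995468 estimated counts in ATF4 overexpression and from 93478686 to 125974143 in WT. Replicates 1 and 2 of both groups were taken as a first library set and replicates 3 and 4 as a second one. The labels name no such sets and do not say what they stand for. Column names of replicates 3 and 4 are written with a hyphen, and those of replicates 1 and 2 without. The columns of 4 libraries (ATF4 overexpression replicates 1 and 2, WT replicates 1 and 4) held few low nonzero counts. Atf4 had 445, 427, 228 and 212 CPM in ATF4 overexpression (replicates 1 to 4), against 286, 308, 165 and 165 CPM in WT. Its log2 fold change, 0.51 ± 0.31 (SE), was not called (adjusted p = 0.37). A fit with the replicate number as a block called it (0.48, adjusted p = 2.2e-04), and it was also called within set 1 (0.59, adjusted p = 0.0038) and within set 2 (0.41, adjusted p = 0.0046). Leaving out the 4 libraries poor in low counts gave -0.11 (adjusted p = 0.86), in a fit of ATF4 overexpression replicates 3 and 4, both of set 2, against WT replicates 2 and 3, of which replicate 2 is of set 1. Group and set are partly mixed in every result that leaves out those 4 libraries. The table does not separate reads of a transgene from those of the endogenous gene. All 13 T cell genes of the marker list were detected, and they summed to between 6048 and 6267 CPM in ATF4 overexpression and between 7323 and 7701 CPM in WT.

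Most of the elongation factors and other TOP transcripts were lower in ATF4 overexpression, on the TMM scale. Of the 10, 8 fell and 0 rose at an adjusted p below 0.05 (edgeR quasi-likelihood test, Benjamini-Hochberg over 16630 genes tested). The 8 that fell were Eef1a1, Eef1b2, Eef1d, Eef1g, Eef2, Tpt1, Fau and Naca, while Btf3 and Pabpc1 did not pass. Among the 8, Eef2 fell by 15.9%, the least, and Eef1b2 fell by 38.6%, the most. Over all tested genes 4.89% were called lower and 9.16% higher, and among the 2246 genes of at least 100 CPM, a level every one of the 10 exceeds, the shares were 13.4% and 3.56%. The median log2 fold change of the 10 was -0.46, against -0.02 over all tested genes and -0.09 over those of at least 100 CPM. No member reached an unadjusted p below 0.05 in the higher direction, and DESeq2 and limma-voom also called 8 lower and 0 higher. Groups did not overlap, with ATF4 overexpression lower, for 9 of 10, against 8.66% of all tested genes and 18.5% of those of at least 100 CPM. When the 4 libraries poor in low counts were left out, 2 of the 10 fell (Eef1b2 and Tpt1), 0 rose and the median was -0.40, where 1.94% of genes were called lower and 7.29% higher. The direction depended on the scale. With libraries scaled to ribosomal proteins 0 of the 10 were lower and 5 higher, where 0.397% of all tested genes were lower and 60.5% higher. Scaled to T cell genes 3 were lower and 1 higher, where 1.46% of all tested genes were lower and 26.5% higher. In bulk RNA fewer cells of a type and less RNA per cell cannot be told apart.

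**Figure D1:**
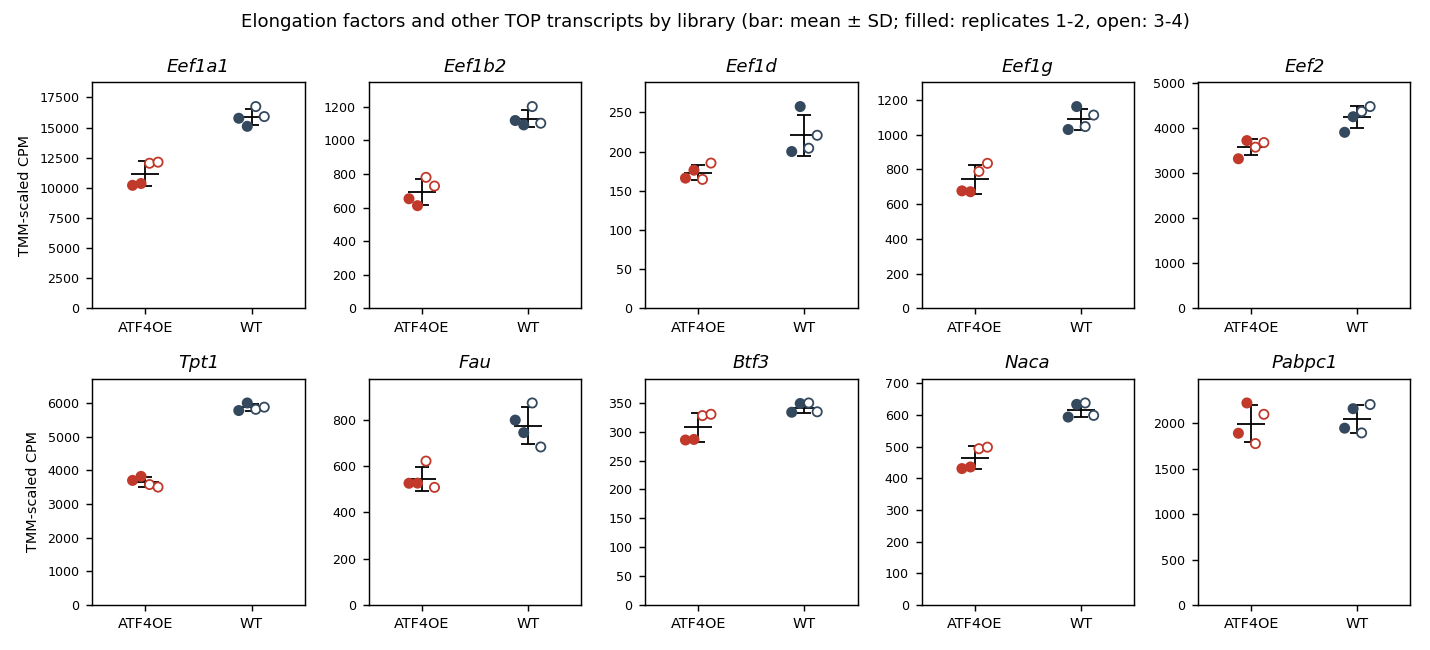
TMM-scaled CPM (vertical axes, linear from 0) of the 10 transcripts in each library, with ATF4 overexpression left of WT, mean and SD as bars, filled points for replicates 1 and 2 and open points for replicates 3 and 4. The groups separate in every panel except Pabpc1, and the gap in Btf3 is the narrowest of the others (330.3 CPM in the highest ATF4 overexpression library, 334 CPM in the lowest WT library).

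Eef1a1 (chromosome 9, 78478449 to 78489151, minus strand, GRCm38, 8 exons) encodes the isoform of eEF1A used by most tissues. It had 10210, 10360, 12040 and 12130 CPM in ATF4 overexpression (replicates 1 to 4), against 15770, 15100, 16740 and 15910 CPM in WT. Every ATF4 overexpression library lay below every WT library, and replicates 3 and 4 were the higher of the ATF4 overexpression libraries. The means were 11190 ± 1044 CPM in ATF4 overexpression and 15880 ± 675 CPM in WT (SD, n = 4 each), a fall by 0.51 ± 0.08 (SE) on the log2 scale (adjusted p = 0.0024). This message alone took 1.06% to 1.28% of all counts in ATF4 overexpression and 1.40% to 1.65% in WT. All 10 together took 2.27%, 2.33%, 2.58% and 2.58% of counts in ATF4 overexpression, against 2.98%, 2.95%, 3.26% and 3.14% in WT, so Eef1a1 gave between 45.4% and 50.5% of the summed counts of the 10 in each library. Eef1a2, the isoform of muscle and neurons, had 0 counts in all 8 libraries, which allows up to 0.0321 CPM in the shallowest one (3 counts, counting error only).

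The eEF1B complex exchanges the nucleotide on eEF1A, and the messages of its 3 subunits all fell. Eef1b2 (chromosome 1, 63176825 to 63180486, plus strand) encodes the catalytic beta subunit. It had 652, 611, 779 and 728 CPM in ATF4 overexpression, against 1117, 1091, 1200 and 1101 CPM in WT. Every ATF4 overexpression library lay far below every WT library, and the log2 fold change of -0.70 ± 0.09 (SE, adjusted p = 6.6e-04) was the lowest of the 10. Eef1g (chromosome 19, 8967041 to 8978479, plus strand), the scaffold subunit, had 676, 671, 788 and 834 CPM in ATF4 overexpression, against 1029, 1161, 1046 and 1112 CPM in WT. Its groups did not overlap either, and it fell by 0.55 ± 0.09 on the log2 scale (adjusted p = 0.0028). Eef1d (chromosome 15, 75894205 to 75909556, minus strand) encodes the delta subunit, a second exchange factor. It had 166, 176, 164 and 185 CPM in ATF4 overexpression, against 200, 257, 204 and 221 CPM in WT. The highest ATF4 overexpression library lay just under the lowest WT library, with WT replicate 2 well above the other WT libraries. The fall of 0.35 ± 0.09 (adjusted p = 0.029) was lost in 5 of 8 fits that leave out 1 library. Those were the fits without ATF4 overexpression replicate 1 (adjusted p = 0.070), 2 (0.052) or 3 (0.077), or without WT replicate 2 (0.058) or 4 (0.065).

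Eef2 (chromosome 10, 81176631 to 81182498, plus strand) encodes the translocase, the target of the inhibitory kinase eEF2K. It had 3313, 3715, 3569 and 3671 CPM in ATF4 overexpression, against 3898, 4243, 4359 and 4468 CPM in WT. The groups were apart, but WT replicate 1 lay nearer to the highest ATF4 overexpression library than to any other WT library. The fall of 0.25 ± 0.07 on the log2 scale (adjusted p = 0.040) was the smallest of those called. It was lost in 6 of 8 fits without 1 library, with adjusted p up to 0.131, and held only without ATF4 overexpression replicate 2 (0.049) or WT replicate 1 (0.035).

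Tpt1 (chromosome 14, 75845093 to 75848525, plus strand) encodes TCTP, the translationally controlled tumour protein, an abundant protein of growth and survival. It had 3700, 3819, 3577 and 3501 CPM in ATF4 overexpression, against 5777, 6002, 5813 and 5877 CPM in WT. The spread within each group was small beside the gap, and this gene had the smallest adjusted p of the 10 (a fall of 0.69 ± 0.06 on the log2 scale, adjusted p = 8.2e-05). Fau (chromosome 19, 6057844 to 6059524, plus strand) encodes ribosomal protein eS30 fused to a ubiquitin-like protein. It had 526, 526, 622 and 508 CPM in ATF4 overexpression, against 799, 745, 873 and 683 CPM in WT. ATF4 overexpression replicate 3 stood above the other libraries of its group but below every WT library, and the fall was 0.51 ± 0.10 (adjusted p = 0.0063).

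Naca and Btf3 encode the alpha and beta subunits of the nascent polypeptide-associated complex, which meets new chains at the ribosome's exit. Naca (chromosome 10, 128035575 to 128048637, plus strand) had 431, 436, 494 and 498 CPM in ATF4 overexpression, against 594, 634, 638 and 599 CPM in WT. It fell by 0.41 ± 0.07 on the log2 scale (adjusted p = 0.0051), with no overlap of the groups. Btf3 (chromosome 13, 98309896 to 98317006, minus strand) had 286, 287, 328 and 330.3 CPM in ATF4 overexpression, against 334, 349, 350 and 335 CPM in WT. Its groups did not overlap, yet the higher ATF4 overexpression libraries lay just under the lowest WT library. The log2 fold change of -0.15 ± 0.07 did not pass the test (adjusted p = 0.22). Pabpc1 (chromosome 15, 36595661 to 36609668, minus strand), the cytoplasmic poly(A)-binding protein, had 1892, 2226, 1778 and 2101 CPM in ATF4 overexpression, against 1948, 2163, 1896 and 2209 CPM in WT. The groups overlapped over nearly their whole range, and the log2 fold change was -0.04 ± 0.09 (adjusted p = 0.85). An approximate 95% interval, by a normal approximation from its SE over libraries, ran from -0.21 to 0.14. The TOP start printed above is that of the principal annotated transcript for Pabpc1. For Tpt1 it is that of 1 of 8 annotated transcripts, the retained-intron one, and not of the principal transcript. The TOP starts found for Eef1b2, Eef1d and Fau were likewise not those of the transcripts taken here as principal.

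Levels per kilobase of the principal annotated transcript give an order that counts alone do not. Eef1a1 stood first, at 6235 ± 582 CPM per kilobase in ATF4 overexpression and 8852 ± 376 in WT (SD, n = 4 each). Tpt1 was next, at 3122 ± 119.6 CPM per kilobase in ATF4 overexpression and 5019 ± 84.4 in WT, followed by Eef2 at 1155 ± 58.2 in ATF4 overexpression and 1373 ± 80.0 in WT. Fau (741 ± 69.9 CPM per kilobase) and Pabpc1 (710 ± 71.6) differed by less than their spread in ATF4 overexpression, as did Eef1g (398 ± 43.8) and Eef1b2 (357 ± 38.9), with Naca (525 ± 41.0) between these pairs and Btf3 (282 ± 22.7) below them. In WT, Fau (1053 ± 109.8) followed Eef2, and Pabpc1 (729 ± 55.1) and Naca (696 ± 26.1) differed by less than their spread, as did Eef1g (583 ± 32.8) and Eef1b2 (581 ± 25.7). Btf3 was at 313 ± 8.08 CPM per kilobase in WT. Eef1d was the lowest of the 10, at 74.8 ± 4.18 CPM per kilobase in ATF4 overexpression and 95.4 ± 11.3 in WT. Another choice of transcript would change these lengths.

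Because every library measures all 10 transcripts, ratios within a library do not depend on scaling. Of 7 pairs, chosen after the values were seen and given without a test, 3 did not overlap between the groups. The share of other gene pairs that separate so was not computed, so this count has no background. A pair can also separate only because 1 transcript fell more than the other in the fits above. The ratio of Naca to Btf3 counts was 1.507, 1.52, 1.505 and 1.509 in ATF4 overexpression, against 1.778, 1.816, 1.823 and 1.79 in WT. Both messages encode subunits of a single heterodimer, and the spread of the ratio within each group was small beside the gap between the groups. The ratio of Eef1a1 to Eef2 was 3.08, 2.79, 3.37 and 3.31 in ATF4 overexpression, against 4.05, 3.56, 3.84 and 3.56 in WT. The ratio of Pabpc1 to Eef1a1 was 0.185, 0.215, 0.148 and 0.173 in ATF4 overexpression, against 0.124, 0.143, 0.113 and 0.139 in WT. Ratios of Eef1b2 to Eef1g, Eef1b2 to Eef1d and Tpt1 to Eef1a1 overlapped between the groups, and Fau to Eef1a1 was 0.0490 ± 0.0047 in ATF4 overexpression and 0.0488 ± 0.0041 in WT (SD, n = 4 each).

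**Figure D2:**
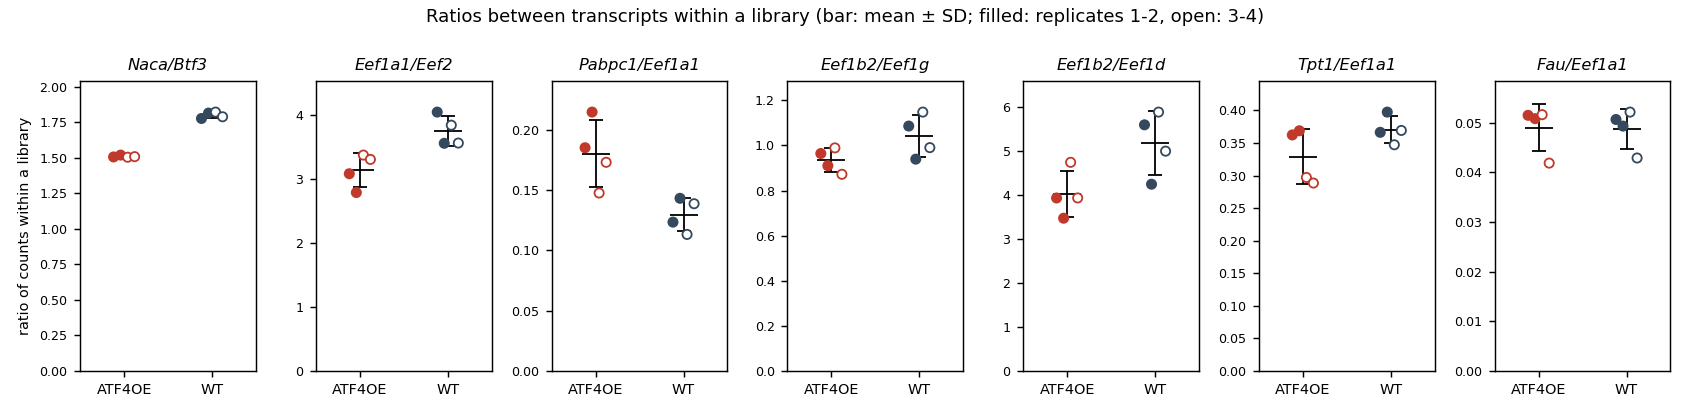
Ratio of the counts of paired transcripts within each library (vertical axes, linear from 0), ATF4 overexpression left of WT, with mean and SD as bars, filled points for replicates 1 and 2 and open points for replicates 3 and 4. The Naca to Btf3 ratio lies between 1.505 and 1.52 in the 4 ATF4 overexpression libraries and between 1.778 and 1.823 in the 4 WT libraries, while Fau to Eef1a1 overlaps.

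Between the library sets the change kept its direction for 9 of the 10, though Btf3 was only at -0.05 in set 2 and called in neither set. The share of all tested genes that kept theirs was not computed. Within replicates 1 and 2, 6 of the 10 fell and 0 rose (3.07% of tested genes were called lower and 6.75% higher there). Within replicates 3 and 4 also 6 fell and 0 rose (8% of tested genes lower and 14.3% higher). Eef1a1, Eef1b2, Eef1g, Tpt1 and Naca were called in both sets. Eef1b2 fell by 0.77 on the log2 scale in set 1 and by 0.61 in set 2, and Tpt1 fell by 0.61 in set 1 and by 0.72 in set 2. Eef1g fell by 0.67 in set 1 and by 0.41 in set 2, an interaction of 0.29 ± 0.11 (SE) that did not pass (edgeR, adjusted p = 0.29). No member had an interaction at an adjusted p below 0.05, where 0.998% of all tested genes did, and Eef1g and Btf3 had an unadjusted p below 0.05. Fau was called in set 1 and not in set 2 (adjusted p = 0.068), Eef2 in set 2 and not in set 1 (adjusted p = 0.34), and Eef1d in neither (adjusted p = 0.11 in set 1 and 0.051 in set 2). Pabpc1 was at 0.04 in set 1 and -0.08 in set 2, neither past the test. In the fit with library set as a term no member differed between the sets at an adjusted p below 0.05 (11.3% of tested genes were lower and 12.2% higher in set 2), and Eef1a1 and Eef1b2 had an unadjusted p below 0.05.

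**Figure D3:**
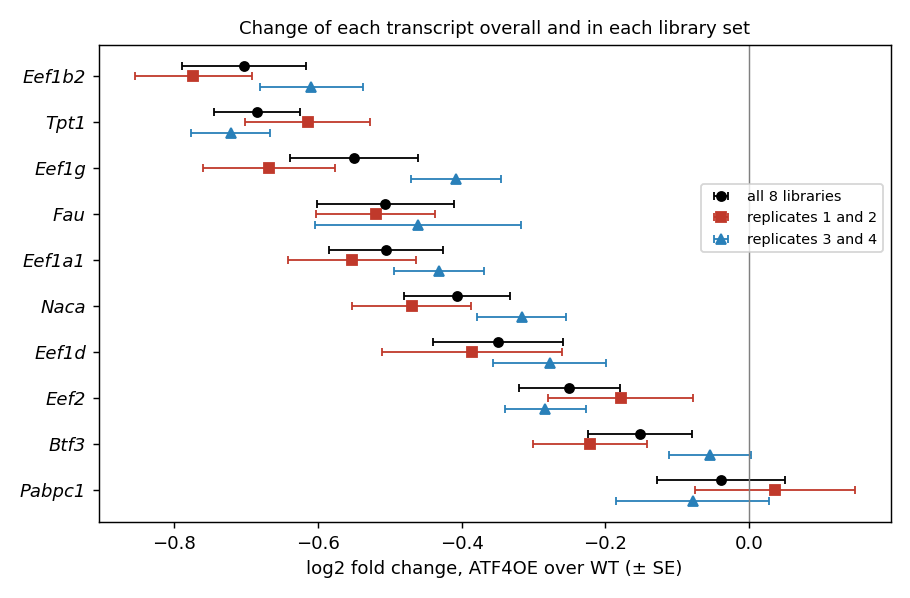
Log2 fold change, ATF4 overexpression over WT, with its SE for each transcript (horizontal axis), from all 8 libraries (circles), from replicates 1 and 2 (squares) and from replicates 3 and 4 (triangles). All points lie below 0 except Pabpc1 in replicates 1 and 2 (0.04), and the sets lie farthest apart for Eef1g (-0.67 and -0.41).

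The ribosomal proteins, the largest family of TOP messages, fell in all 77 members, by a median of 0.59 on the log2 scale (between 0.35 and 0.92), and 56 of the 77 fell when the libraries poor in low counts were left out. Rps15a was at 909 ± 80.0 CPM in ATF4 overexpression and 1566 ± 64.2 CPM in WT, and Rps28 at 415 ± 2.74 CPM in ATF4 overexpression and 646 ± 35.7 CPM in WT (SD, n = 4 each). Scaled to the summed ribosomal protein counts of each library, 5 of the 10 transcripts were higher (Btf3 0.44, Pabpc1 0.56, Eef2 0.34, Eef1d 0.25 and Naca 0.18 on the log2 scale) and 0 were lower. On that scale 60.5% of all tested genes were called higher and 0.397% lower, the median over all tested genes was 0.57, and all 10 transcripts lay below that median. Eef1a1 (0.08), Eef1g (0.04), Fau (0.08), Tpt1 (-0.09) and Eef1b2 (-0.11) did not pass the test there. Scaled instead to the summed T cell genes, Eef1b2 (-0.42), Tpt1 (-0.40) and Eef1g (-0.27) were lower and Pabpc1 (0.24) was higher, where 1.46% of genes were called lower and 26.5% higher. The median of all genes on that scale was 0.26, and all 10 lay below it too. A change of scale moves all genes nearly alike, so the place of each transcript against the median is that of the TMM fit. Pabpc1 (-0.04 by TMM, where the median was -0.02) lay within its SE of the median in each scaling.

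**Figure D4:**
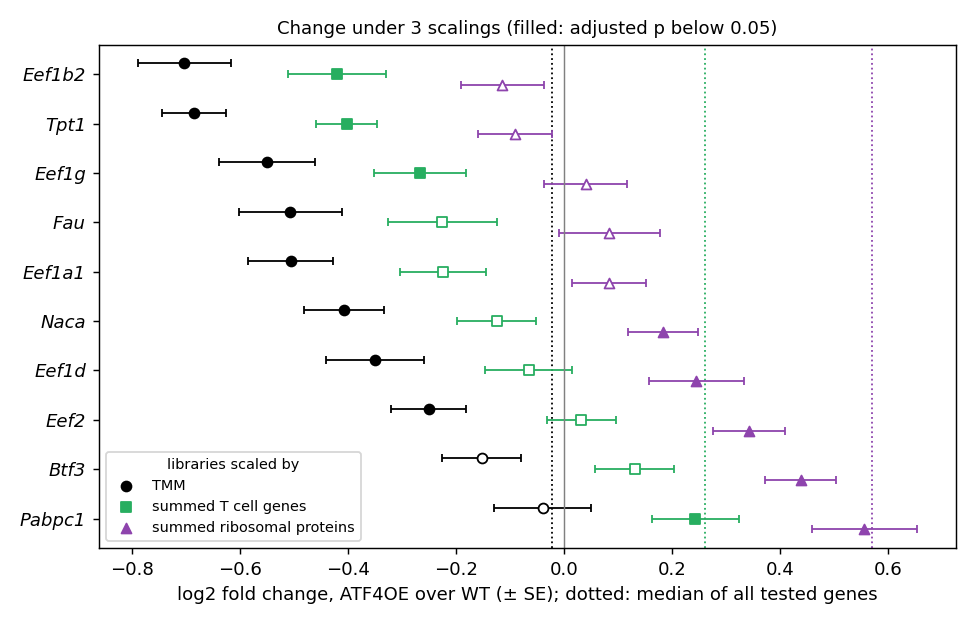
Log2 fold change, ATF4 overexpression over WT, with its SE (horizontal axis) for each transcript under 3 scalings of the libraries, by TMM (circles), by summed T cell genes (squares) and by summed ribosomal proteins (triangles), filled where the adjusted p was below 0.05, with the median of all tested genes dotted. Eef1b2 is at the low end and Pabpc1 at the high end in each scaling, and each symbol lies left of the dotted line of its own scaling. A change of scale moves all genes nearly alike, so these are not 3 separate results, and Pabpc1 lies within its SE of each line.

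In a list of 16 further TOP transcripts the median log2 fold change was -0.21, and 5 were called lower and 1 higher. For comparison, 13.4% of tested genes of at least 100 CPM were called lower and 3.56% higher. The shares for the whole set of tested genes were 4.89% lower and 9.16% higher. Rack1, a scaffold on the small ribosomal subunit, was at 1539 ± 147 CPM in ATF4 overexpression and 2221 ± 149 CPM in WT (-0.53, adjusted p = 0.0028), and Pfdn5, a prefoldin subunit, at 142 ± 7.27 CPM in ATF4 overexpression and 197 ± 19.9 CPM in WT (-0.47, adjusted p = 0.0050). The initiation factor subunits Eif3e (-0.37) and Eif3h (-0.33) also fell, and are named because their values had been seen. With total counts neither Eif3e (-0.24, adjusted p = 0.18) nor Eif3h (-0.20, adjusted p = 0.27) was called, and scaled to ribosomal proteins Eif3h was called higher (0.27, adjusted p = 0.020), while Rack1 (0.06), Pfdn5 (0.13) and Eif3e (0.22) turned positive without a call. Vim, the intermediate filament vimentin, went the other way, at 424 ± 41.0 CPM in ATF4 overexpression and 289 ± 6.97 CPM in WT (0.55, adjusted p = 0.0014). The replicate block called 10 of the 16 lower, where it called 13.5% of all tested genes lower, and 1 was lower when the libraries poor in low counts were left out, where 1.94% of all tested genes were.

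Among 23 other tested elongation and termination factors, including enzymes that modify elongation factors, 5 fell and 2 rose, with a median of -0.10. Over all tested genes 4.89% were lower and 9.16% higher. Dph2 (22.9 ± 2.15 CPM in ATF4 overexpression, 30.4 ± 1.99 CPM in WT) and Dph5 (48.7 ± 3.40 CPM in ATF4 overexpression, 66.4 ± 9.95 CPM in WT) both fell. The log2 fold change was -0.41 for Dph2 (adjusted p = 0.016) and -0.45 for Dph5 (adjusted p = 0.022). They encode enzymes of diphthamide, a modified histidine found in eEF2. Eef2kmt, the lysine methyltransferase of eEF2, was at 18.0 ± 1.76 CPM in ATF4 overexpression and 24.2 ± 1.63 CPM in WT (-0.42, adjusted p = 0.020). Dph6, the last enzyme of that pathway (-0.31, adjusted p = 0.046), and Eif5a2 (-0.50, adjusted p = 0.044) also fell, and are named after their values were seen, as is Eef2k. These 5 falls depended on the scale: with total counts none was called (adjusted p = 0.12 for Dph2, 0.061 for Dph5, 0.25 for Dph6, 0.12 for Eef2kmt and 0.15 for Eif5a2), nor was any scaled to T cell genes. Scaled to ribosomal proteins all 5 were positive, and Dph6 was called higher (0.28, adjusted p = 0.041). Eef2k, the kinase that inhibits eEF2, had 32.4, 26.96, 34.2 and 38.1 CPM in ATF4 overexpression, against 27.5, 24.0, 21.9 and 22.8 CPM in WT. It rose by 0.45 ± 0.12 on the log2 scale (adjusted p = 0.030), although ATF4 overexpression replicate 2 lay below WT replicate 1. Its change was 0.24 within set 1 (adjusted p = 0.34) and 0.70 within set 2 (adjusted p = 0.0030), and the interaction of 0.49 ± 0.17 (SE) did not pass (edgeR, adjusted p = 0.25). Gspt2, a release factor of low abundance, had 0.368, 0.670, 0.539 and 1.26 CPM in ATF4 overexpression and 0, 0, 0.0667 and 0 CPM in WT (adjusted p = 0.023). When the libraries poor in low counts were left out, 0 of these 23 were lower and 1 was higher (Eef2k, 0.66, adjusted p = 0.031), and the replicate block called 6 lower and 4 higher, where it called 13.5% of all tested genes lower and 13.7% higher.

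Of 21 regulators of TOP messages and of mTORC1, 2 rose and 0 fell, with a median of 0.02, and a share of 2 in 21 is near the 9.16% called higher over all tested genes. Eif4ebp1, which binds the cap-binding protein eIF4E when mTORC1 is low and is an ATF4 target, had 40.2, 46.0, 46.8 and 46.5 CPM in ATF4 overexpression, against 3.79, 4.45, 4.75 and 4.45 CPM in WT. Sesn2, a leucine-responsive inhibitor of mTORC1 and likewise an ATF4 target, had 41.0, 41.5, 48.6 and 45.6 CPM in ATF4 overexpression, against 3.33, 3.58, 5.31 and 4.68 CPM in WT. Larp1 was at 294 ± 17.0 CPM in ATF4 overexpression and 268 ± 10.9 CPM in WT and was not called (0.14, adjusted p = 0.23). It is named for its role, outside the rule. Of the proteins that bind PABPC1, Paip1 (-0.21, adjusted p = 0.080) and Paip2b (-0.30, adjusted p = 0.076) did not pass. With the replicate block the counts of this list were 4 higher and 4 lower, where 13.7% of all tested genes were higher and 13.5% lower. A list of 11 tested nascent chain factors included subunits of the signal recognition particle and of its receptor. Of these 11, 0 were called by edgeR, DESeq2 or limma-voom and 0 had an unadjusted p below 0.05 in any of the 3. The replicate block called 1 of them lower.

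**Figure D5:**
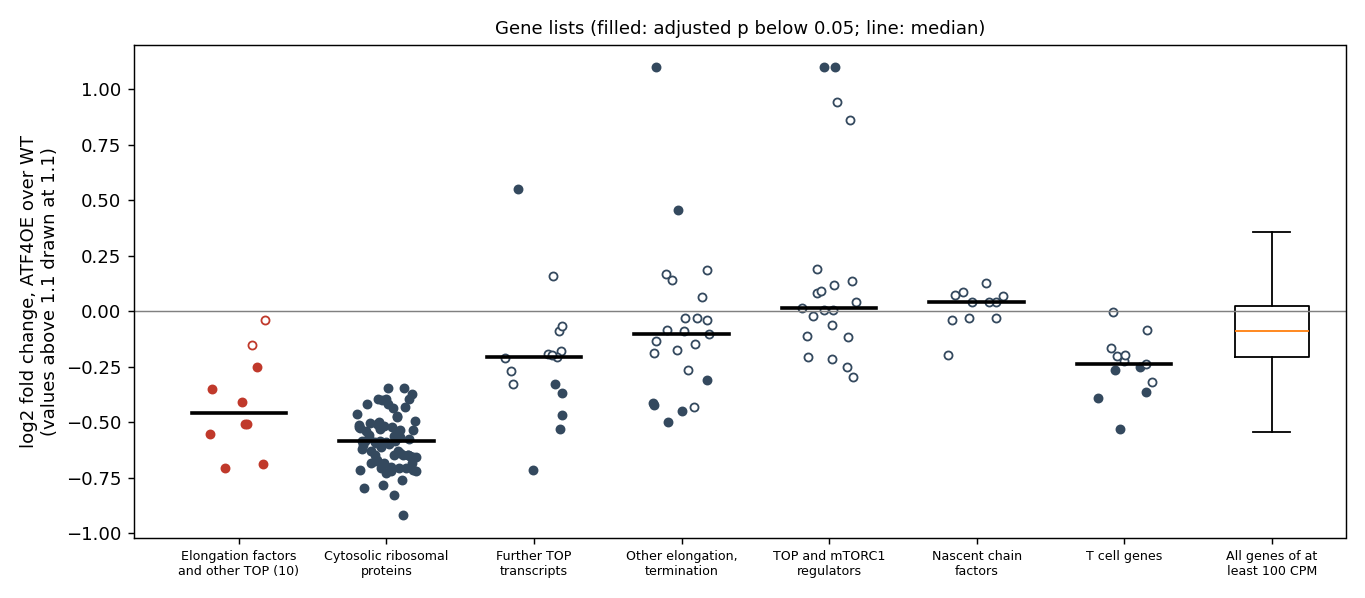
Log2 fold change, ATF4 overexpression over WT (vertical axis, values above 1.1 drawn at 1.1), of each tested gene in 7 lists, with the 10 transcripts at the left, filled where the adjusted p was below 0.05 and with the median as a line, beside a box of all genes of at least 100 CPM (median and quartiles, whiskers to 1.5 times the interquartile range). The 10 transcripts have a median of -0.46, the ribosomal proteins -0.59, the further TOP transcripts -0.21 and the T cell genes -0.24.

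By the root mean square difference of centred log2(CPM + 1) over the 8 libraries, 8 of the 10 non-members of at least 100 CPM nearest to the mean profile of the transcripts were ribosomal proteins, as were 22 of the nearest 50, against 3.44% of the 2236 genes compared. The mean profile holds the fall between the groups, so genes near to it are ones that fell. All 77 ribosomal proteins were among the 301 genes of at least 100 CPM called lower. The closest was Rpl29 at 0.0367, followed by Rpl4 at 0.0417 and Rps9 at 0.0490. The other two were Scp2 (0.0535) and Cd27 (0.0598). Of the 10 transcripts themselves, Naca lay closest to their mean at 0.0342 and Pabpc1 farthest at 0.222.

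Markers of other cells moved with the group. B cell markers summed to between 110.5 and 283 CPM in ATF4 overexpression and between 35.5 and 65.3 CPM in WT, with 6 of 8 higher. Myeloid markers summed to between 102 and 279 CPM in ATF4 overexpression and between 16.3 and 67.5 CPM in WT (5 of 8 higher), and erythroid markers to between 53.9 and 220.4 CPM in ATF4 overexpression and between 3.55 and 8.66 CPM in WT (5 of 8 higher). Platelet markers ran from 67.6 to 81.6 CPM in ATF4 overexpression and from 26.7 to 36.5 CPM in WT (4 of 6 higher), and NK cell markers from 69.3 to 162 CPM in ATF4 overexpression and from 12.1 to 44.5 CPM in WT (2 of 4 higher). No marker of the 5 lists was lower, while over all tested genes 9.16% were called higher and 4.89% lower. The platelet gene Gp9 was at 0 in all 4 WT libraries, Pf4 and the erythroid gene Slc4a1 in 2, Cd14, Mpo, Epor and Ppbp in 1, and Alas2 in 1 ATF4 overexpression and 2 WT libraries. Of the 13 T cell genes 5 were lower (Cd8a, Cd8b1, Cd3d, Lck and Trac), with a median of -0.24. Among all genes of at least 100 CPM 13.4% were lower. The replicate block called 10 of the 13 T cell genes lower and 0 of the 4 NK cell markers higher. It called 13.5% of all tested genes lower and 13.7% higher. Leaving out the libraries poor in low counts left 0 T cell genes called lower, at a median of -0.31, and 1 of 8 B cell markers higher. There 1.94% of all tested genes were lower and 7.29% higher. The part of these cells in the fall of the 10 transcripts was not tested.

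Reads can be shared with copies and neighbours of these genes. Named pseudogene entries held counts equal to 3.38% to 4.31% of the Tpt1 counts in ATF4 overexpression and 3.86% to 4.47% in WT, and at most 0.250% for Eef1a1, Eef2 and Fau in either group. Adding them to the parent gene changed no call. Ndufs1 lies on the strand opposite to Eef1b2 and Gm9828 opposite to Btf3, and Naprt overlaps Eef1d on the same strand. The strand setting of the counting is not given in the sources used here, so reads from such pairs may not be told apart.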

How the data were processed

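RNA-seq libraries of polyadenylated RNA from 8 samples were analysed. The authors deposited estimated counts per gene, made with Salmon 1.4.0 on GRCm38.p6, per the submitters' processing notes. The strand setting is not given in the sources used here, nor is the annotation release. Of 55291 genes, 30015 had 0 in all libraries, and 0 columns of other samples were present. Counts were rounded to whole numbers and tested by quasi-likelihood in edgeR 4.0.16 (R 4.3.3, limma 3.58.1), with group as the only term, TMM factors, filterByExpr (16630 genes kept) and Benjamini-Hochberg adjustment over all of them at 0.05. DESeq2 1.42.0 and limma-voom were alternatives. Totals of 93478686 to 125974143 counts leave little counting error at the levels of these genes. The floor of a gene at 0 covers counting error only. The interval of a log2 fold change rests on the spread between libraries and on a normal approximation, which is rough for so few libraries.

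The labels state no pairing of samples. Deviations from the group means correlated between libraries of the same number (r = 0.42 to 0.518), and all 8 libraries correlated best with their own number. Other numbers of the same library set also correlated (r = 0.27 to 0.401), and numbers of different sets did so negatively (r = -0.512 to -0.308). So the likeness went with the set as well as the number, and the reported fit holds neither as a term. Within a group, any pair of libraries differed by a chi-square of at least 38.5 per degree of freedom, so none was treated as a repeat.

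Genes were placed with GENCODE M21, and promoters come from RefSeq. Genes named beyond the 10 were, in each list, up to 4 with the smallest p, the 10 nearest profiles and Atf4, with exceptions stated, and a few items that the rule selects are not reported here. The members and lists were chosen with earlier results of these data known.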

Additional observations from a re-analysis of the deposited data

Results flagged for a closer look

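The level of Fau in ATF4 overexpression replicate 3, 621.5 CPM, stood apart from the other libraries of its group, which lay between 508 and 526 CPM, by Dixon's test at the 95% level. WT replicate 3 was likewise the highest of its group, at 873 CPM. Chance sets apart about 1 in 20 groups, and both groups were examined for each of the 10 transcripts. Without this library Fau fell by 0.57 on the log2 scale, against a fall of 0.51 with it.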

How the results depend on the processing

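The fall of Eef1a1, Eef1b2, Eef1g, Tpt1, Fau and Naca held in all 8 fits without 1 library, and 6 to 8 of the 10 transcripts were lower in those fits. Genes called lower ranged from 518 to 677 there. With the replicate block 8 transcripts were lower and no call among the 10 changed, while genes lower were 2237, against 813 without it, and the share of calls that were higher was 50.5%, against 65.2%. Genes called higher (1524 in the fit reported) were 2327 with the library set as a term, 2434 within set 2, 10058 scaled to ribosomal proteins and 4406 scaled to T cell genes. Genes called lower were 385 with total counts alone, 1927 with the library set as a term, 528 within set 1, 1365 within set 2, 333 without the 4 libraries poor in low counts, 66 scaled to ribosomal proteins and 242 scaled to T cell genes. The share of calls that were higher was 83.5% with total counts, 99.3% scaled to ribosomal proteins and 94.8% scaled to T cell genes. Of the 10 transcripts, 2 were lower without the 4 libraries, 0 scaled to ribosomal proteins (5 higher) and 3 scaled to T cell genes (1 higher). Signs turned when scaled to ribosomal proteins for Eef1a1 (0.0839), Eef1d (0.25), Eef1g (0.0406), Eef2 (0.34), Fau (0.0845), Btf3 (0.44), Naca (0.18) and Pabpc1 (0.56), and when scaled to T cell genes for Eef2 (0.0325), Btf3 (0.13) and Pabpc1 (0.24). Pabpc1 also turned with total counts (0.0899), within set 1 (0.0356) and without ATF4 overexpression replicate 3 (0.0181, the highest of the fits without 1 library, where the lowest was -0.0943). The adjusted p of Eef2 was 0.057 with RLE factors, 0.091 with upper-quartile factors, 0.073 with no filter and 0.051 with the stricter filter, none a call, nor was Eef1d called with upper-quartile factors (0.054). With total counts neither Eef1d (0.13) nor Eef2 (0.36) was called, and the median of all genes was 0.11. A C followed by at least 6 pyrimidines lay in the promoter window of 2 of 7 genes, against 5. The causes were not tested.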
